A study of Macaca mulatta with 2 samples.

Results

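Interferon response genes were followed on 2 arrays of cultured Sertoli cells, which line the seminiferous tubule and nurse germ cells, taken from rhesus macaques. The genes were the probes of a human oligonucleotide array whose gene name was one of 44 symbols, covering interferon receptors, transcription factors, nucleic acid sensors and interferon-induced effectors. Under those symbols the array held 43 of its 21495 gene names, on 66 probes, and IRF9 was the symbol without a probe.

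One array carried pubertal and the other infant material, both of them primary Sertoli cells from testis that were kept for 12 h with the hormones FSH (5 ng/ml) and testosterone (100 nM). The pubertal cells came from 18 to 22 month old males that had been brought into puberty with gonadotropin-releasing hormone (GnRH), delivered at 0.15 µg/min in pulses of 2 min with an interval of 3 h over 4 to 5 weeks. The infant cells came from males under 3 months old, for which no GnRH is recorded. With 1 array for each group there was no replicate and no test, so every difference below describes these 2 arrays, and age, GnRH, animal and culture cannot be told apart. The number of animals or cultures behind each array is not stated in the labels, and culture below means the material on 1 array.

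Type I interferons signal through IFNAR1 and IFNAR2, and interferon gamma through IFNGR1 and IFNGR2. Receptor engagement activates STAT proteins, which enter the nucleus, for type I interferons together with IRF9, and switch on genes whose products degrade viral RNA, block translation or trap virus particles. In the testis, mouse Sertoli cells are known to sense viral RNA and to mount such a response. The roles given for each gene below are those known from human and mouse.

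Each value is a log2 signal from which the 75th percentile of its array was subtracted, and a difference is the pubertal minus the infant value. A difference of 1 is a 2-fold difference, which served as the threshold for a call. Raw signals are given in the scanner's intensity units and are compared only within a probe. The error beside a difference is the scanner software's estimate for the spots, with a median of 0.20 over all genes. It does not cover the culture or the animal.

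Of the 43 genes, 35 were measured well above background on both arrays. Among these 35, the pubertal array had 3 at least 2-fold higher (HERC5, IFI27 and MX2) and 4 at least 2-fold lower (BST2, OAS1, IFNAR1 and IFITM1), and 28 stayed within 2-fold. The shares were 8.57% higher, beside 7.32% of the 14243 genes measured on both arrays, and 11.4% lower, beside 6.32%. The 35 genes had a median difference of -0.24, with quartiles of -0.54 and 0.27, and all genes a median of -0.06, with quartiles of -0.42 and 0.33. Negative differences made up 60% of the 35 genes, with 21 negative and 14 positive, beside 54.2% of all genes. In bulk RNA, fewer cells of a type and less RNA per cell cannot be told apart.

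Another 2 genes were above background on the pubertal array alone (OASL and GBP1), 2 on the infant array alone (IFI44L and OAS2) and 4 on neither (IFNAR2, MX1, RSAD2 and TRIM22). Over all gene names the corresponding shares were 4.21% on the pubertal array alone, 3.14% on the infant array alone and 26.3% on neither. A single probe carried the value for 23 of the 35 genes. None of the 66 probes lay in a disturbed area of an array.

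These directions are relative to the other genes of each array. Scaling on the spike-in control probes raised every difference by 1.01, and scaling on the array median lowered every difference by 0.16. On the spike-in scale the median of the 35 genes was 0.77, beside 0.95 for all genes, with 14 called higher and 1, BST2, called lower. Differences between -1.01 and 0 therefore turn positive on that scale. The calls of OAS1, IFNAR1 and IFITM1 ended on the spike-in scale, at -0.36 for OAS1, -0.35 for IFNAR1 and -0.25 for IFITM1. They also ended with another background correction (normexp), at -0.75 for OAS1, -0.79 for IFNAR1 and -0.69 for IFITM1.

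**Figure D1:**
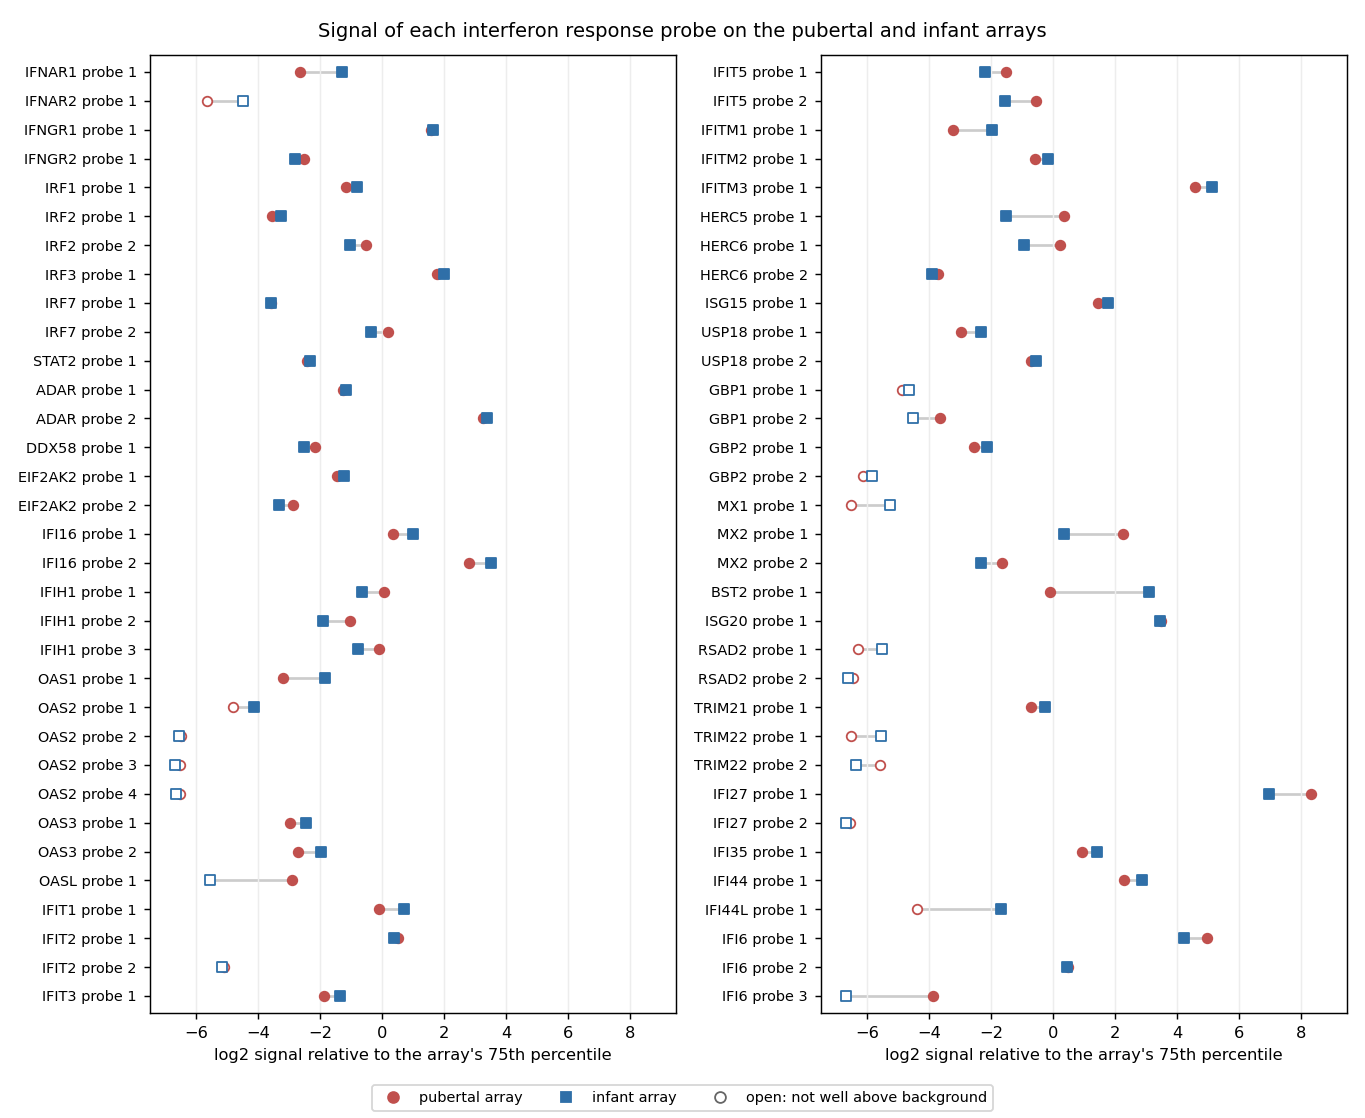
Log2 signal of each of the 66 probes relative to the 75th percentile of its array, with red circles for the pubertal array, blue squares for the infant array and open symbols for signals not well above background. The widest gaps between filled symbols belong to the BST2 probe, at -0.09 in the pubertal and 3.10 in the infant culture, and to the first MX2 probe, at 2.27 in the pubertal and 0.35 in the infant culture.

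Of the 3 receptor genes measured on both arrays, 1 passed 2-fold, beside 13.6% of all genes in either direction. IFNAR1, a chain of the type I interferon receptor, had 65.6 units in the pubertal culture and 158 in the infant culture, a difference of -1.36 ± 0.23 (scanner error), or 2.56-fold lower. Its partner IFNAR2 was below the detection limit on both arrays, at 8.11 units in the pubertal and 17.2 in the infant culture. IFNGR1, the ligand-binding chain of the interferon gamma receptor, had 1218 units in the pubertal culture and 1186 in the infant culture. IFNGR2, its signalling chain, had 70.5 units in the pubertal culture and 54.6 in the infant culture. The differences of IFNGR1 (-0.05) and IFNGR2 (0.28) were both within 2-fold, and that of IFNGR1 changed sign under 4 of its 13 alternative settings. In the macaque annotation (T2T-MMU8v2.0), IFNGR2 and IFNAR1 are neighbours with no protein-coding gene between them.

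None of the 5 transcription factors with a probe passed 2-fold, beside 13.6% of all genes in either direction. STAT2, which binds IRF9 in the complex that carries the type I signal, had 76.1 units in the pubertal culture and 77.0 in the infant culture, a difference of -0.11 that was positive on the spike-in scale alone. IRF1, an activator induced by interferon gamma, had 181 units in the pubertal culture and 219 in the infant culture. IRF3, which is activated by viral RNA sensing without new synthesis, had 1379 in the pubertal and 1533 in the infant culture. The differences of IRF1 (-0.36) and IRF3 (-0.24) were negative, and turned positive with spike-in scaling.

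The regulators IRF2, which can repress IRF1 targets, and IRF7, the amplifier of interferon alpha production, each had 2 probes that pointed opposite ways. For IRF2 the probes differed by -0.30 and 0.52, and for IRF7 by -0.03 and 0.54. The averages of IRF2 (0.11) and IRF7 (0.26) therefore rest on probes that disagree, and that of IRF2 was negative with median scaling.

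None of the 5 sensors passed 2-fold either, beside the same 13.6%. IFIH1 encodes MDA5, a cytosolic sensor of long double-stranded RNA, and its 3 probes gave 425, 201 and 382 units on the pubertal array against 242, 101 and 222 on the infant array. All 3 probes were brighter on the pubertal array, with differences of 0.69 to 0.90 and a mean of 0.77, or 1.71-fold higher. DDX58, which encodes the RNA sensor RIG-I, had a single probe with 91.8 units in the pubertal culture and 67.4 in the infant culture, a difference of 0.36.

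IFI16, a nuclear and cytosolic DNA sensor, had 517 and 2839 units on the pubertal array against 767 and 4354 on the infant array. Both probes were dimmer on the pubertal array, with differences of -0.66 and -0.71, and the mean of -0.68 was positive only on the spike-in scale. EIF2AK2, the kinase PKR that halts translation on binding double-stranded RNA, differed by -0.21 on one probe and 0.45 on the other, and the mean of 0.12 changed sign under 4 of its 13 alternative settings. ADAR, the adenosine deaminase that edits double-stranded RNA and is a brake on MDA5, differed by -0.12, with its 2 probes at -0.10 and -0.14, and was positive with spike-in scaling.

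The oligoadenylate synthetases make the messenger that activates RNase L. OAS1 was measured by a probe with 43.9 units in the pubertal culture and 106 in the infant culture, a difference of -1.36 ± 0.26 (scanner error), or 2.58-fold lower. OAS3 had 51.6 and 62.3 units on the pubertal array against 69.2 and 97.7 on the infant array, and both of its probes were dimmer on the pubertal array, with a mean difference of -0.63 that turned positive with spike-in scaling. OAS2 was above background on the infant array alone and through 1 of its 4 probes, with 14.5 units in the pubertal culture and 21.9 in the infant culture, which bounds it at least 1.12-fold lower in the pubertal culture.

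OASL, a related protein without synthetase activity that enhances RIG-I signalling, went the other way. Its probe had 53.9 units in the pubertal culture and 8.21 in the infant culture, where it was not well above background, so it was at least 2.73-fold higher in the pubertal culture. OAS1 and OAS3 are neighbours in the macaque annotation, with 1 protein-coding gene, CFAP73, between OAS3 and OAS2.

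The IFIT proteins bind foreign RNA ends and limit its translation, and none of the 4 genes passed 2-fold, beside 13.6% of all genes. IFIT1 had 378 units in the pubertal culture and 623 in the infant culture, a difference of -0.81, and IFIT3 had 111 units in the pubertal culture and 150 in the infant culture, a difference of -0.51. Both differences turned positive with spike-in scaling. IFIT2 had 579 units in the pubertal culture and 499 in the infant culture, a difference of 0.13 that was negative with median scaling.

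IFIT5 was brighter on the pubertal array on both of its probes, with 142 and 277 units there against 82.9 and 129 on the infant array. Its probe differences were 0.69 and 1.01, with a mean of 0.85, or 1.80-fold higher. The 4 IFIT genes lie in one cluster in the macaque annotation, where IFIT1 and IFIT5 are adjacent although their differences were of opposite sign at the scaling used here.

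The IFITM proteins sit in membranes and hinder the fusion of incoming viruses. All 3 had negative differences, beside 54.2% of all genes, and those of IFITM2 and IFITM3 turned positive with spike-in scaling. IFITM1 had 42.9 units in the pubertal culture and 96.7 in the infant culture, a difference of -1.26 ± 0.28 (scanner error), or 2.40-fold lower. IFITM3 had 9671 units in the pubertal culture and 13427 in the infant culture, a difference of -0.56. IFITM2 had 270.4 units in the pubertal culture and 345 in the infant culture, a difference of -0.44.

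The IFITM2 and IFITM3 probes are printed because they share letters, so their values may not be independent. Capitals mark a run of 17 bases common to both, within an overlap in which 34 of 40 bases match. The IFITM1 probe, of which the first 30 bases are given, shares no run over 6 bases with either.
IFITM2 probe: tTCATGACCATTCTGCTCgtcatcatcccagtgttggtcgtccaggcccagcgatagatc
IFITM3 probe: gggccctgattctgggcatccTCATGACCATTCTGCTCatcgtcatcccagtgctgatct
IFITM1 probe, bases 1 to 30: atacagcagtttatacccacacacctgtct
A probe named LOC123862, described on the array as similar to IFITM3, shares a run of 28 bases with the IFITM3 probe and differed by -0.32 between the arrays. Another of that description, LOC391020, matches 40 of 43 overlapping bases of the IFITM3 probe and 45 of 57 of the IFITM2 probe, and differed by -2.65. The symbols IFITM2 and IFITM3 do not occur in the macaque gene tables (T2T-MMU8v2.0). How the monkey transcripts of the IFITM genes divide between the probes was not tested.

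ISG15 is a ubiquitin-like protein that is attached to other proteins by the ligase HERC5 and removed by USP18. HERC5 had 519 units in the pubertal culture and 133 in the infant culture, a difference of 1.87 ± 0.21 (scanner error), or 3.67-fold higher, the most positive difference among the 35 genes. HERC6, its neighbour in the macaque annotation and in mouse the main ISG15 ligase, had probes of 473 and 30.9 units on the pubertal array against 198 and 25.6 on the infant array. The HERC6 probes differed by 1.17 and 0.19, both positive, with a mean of 0.68.

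The modifier and its protease were within 2-fold. ISG15 had 1118 units in the pubertal culture and 1296 in the infant culture, a difference of -0.30. USP18, which also blocks the type I receptor, had 51.8 and 247 units on the pubertal array against 76.2 and 258 on the infant array, a mean difference of -0.40. Those of ISG15 and USP18 both became positive with spike-in scaling, whereas HERC5 and HERC6 were positive under every alternative run.

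The sequences of HERC5 and of OAS1, called in opposite directions on a single probe each, are given in full because each call rests on these 60 bases.
HERC5 probe: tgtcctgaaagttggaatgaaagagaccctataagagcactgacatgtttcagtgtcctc
OAS1 probe: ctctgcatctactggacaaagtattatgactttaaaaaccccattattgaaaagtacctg
Both are human designs, and how well they match the macaque transcripts was not tested.

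**Figure D2:**
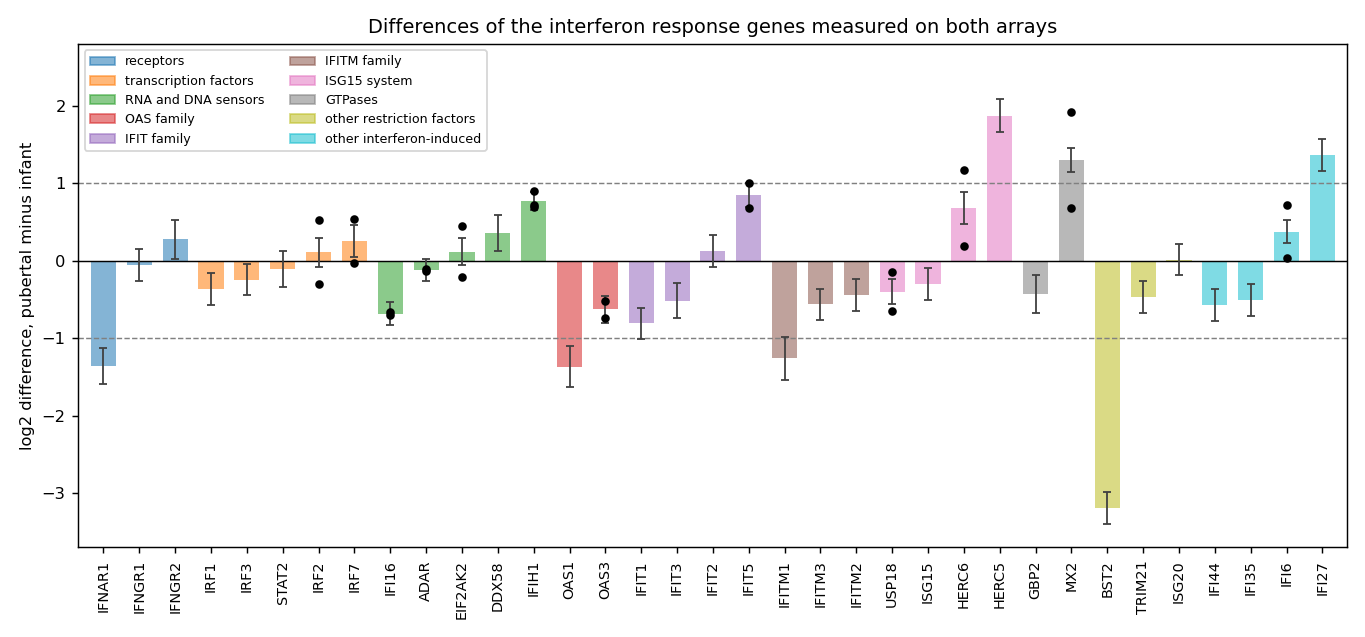
Log2 differences, pubertal minus infant, of the 35 genes measured on both arrays, as bars coloured by role and ordered by value within a role. Error bars are the scanner's estimate, black dots the single probes of genes with several, and dashed lines mark 2-fold; HERC5 at 1.87, IFI27 at 1.36 and MX2 at 1.30 pass the upper line and BST2 at -3.19 lies farthest below the lower one, while bars between -1.01 and 0 turn positive with spike-in scaling.

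Of the 2 interferon-induced GTPase genes measured on both arrays, MX2 passed 2-fold, beside 13.6% of all genes in either direction. MX2, a dynamin-like protein that restricts the nuclear entry of retroviruses and herpesviruses, had probes of 1957 and 129 units on the pubertal array against 486 and 75.5 on the infant array. Both probes were brighter on the pubertal array, with differences of 1.92 and 0.68 and a mean of 1.30 ± 0.15 (scanner error), or 2.46-fold higher. Its neighbour MX1, a cytoplasmic restrictor of influenza virus and one of the most used reporters of interferon action, was below the detection limit on both arrays, with 4.46 units in the pubertal and 10.1 in the infant culture.

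The first 30 bases of both MX2 probes are shown because the gene value averages them although one difference is 1.92 and the other 0.68.
MX2 probe 1, bases 1 to 30: tctgggtcaaattcttcttttgtatgtcca
MX2 probe 2, bases 1 to 30: actctcattttcccagtaatgagtcttcgg
Taking the brighter of these alone gave 1.92.

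The guanylate-binding proteins, which coat pathogens and the vacuoles that hold them, had no gene past 2-fold, beside 13.6% of all genes. GBP1 passed background in the pubertal culture alone, through 1 of its 2 probes, with 32.3 units in the pubertal culture and 16.6 in the infant culture, at least 1.63-fold higher. GBP2 had 68.9 units in the pubertal culture and 87.1 in the infant culture, a difference of -0.43 that was positive with spike-in scaling.

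BST2, or tetherin, holds budding virus particles at the cell surface. Its probe had 382 units in the pubertal culture and 3275 in the infant culture, a difference of -3.19 ± 0.20 (scanner error), or 9.12-fold lower. This was the largest difference in size among the 35 genes and the only one past 4-fold, beside 1.67% of all genes higher and 0.857% lower by that much. It ranged from -3.35 to -3.02 under the other settings and was -2.18 with spike-in scaling, where it remained called. The probe begins with the bases below, shown because the gene has this 1 probe.
BST2 probe, bases 1 to 30: tgctcggcttttcgcttgaacattcccttg

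The other restriction factors were within 2-fold or undetected. ISG20, an RNA exonuclease, had 4508 units in the pubertal culture and 4194 in the infant culture, a difference of 0.02 that changed sign under 2 of its 13 alternative settings. TRIM21, a cytosolic antibody receptor, had 248 units in the pubertal culture and 321 in the infant culture, a difference of -0.46 that turned positive with spike-in scaling. RSAD2, which encodes viperin, gave 5.13 and 4.60 units on the pubertal array and 8.31 and 3.88 on the infant array, none well above background. TRIM22, a ubiquitin ligase, gave 4.39 and 8.44 units on the pubertal array and 8.23 and 4.61 on the infant array, also below that limit.

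Among the 4 remaining interferon-induced genes measured on both arrays, IFI27 was the one past 2-fold, beside 13.6% of all genes. IFI27 is a small membrane protein of mitochondria and the nuclear envelope. Its first probe had 131238 units in the pubertal culture and 47906 in the infant culture, a difference of 1.36 ± 0.20 (scanner error), or 2.58-fold higher. The second IFI27 probe had 4.37 units in the pubertal culture and 3.75 in the infant culture, not well above background. With the median of all probes taken in place of the detected ones, the difference was 0.75, below 2-fold.

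IFI6, a mitochondrial protein related to IFI27, had 3 probes that differed in kind. The first had 12673 units in the pubertal culture and 7228 in the infant culture, a difference of 0.72, and the second had 573 in the pubertal culture and 526 in the infant culture, a difference of 0.04. The third was above background on the pubertal array alone, with 27.7 units there and 3.74 on the infant array. All 4 accessions listed for the second probe, and 1 of 4 for the third, are also listed for probes that the array names immunoglobulin heavy locus, whereas none of the 4 for the first is.
IFI6 probe 1, bases 1 to 30: agtagccagcagctcccagaacctcttctt
IFI6 probe 2: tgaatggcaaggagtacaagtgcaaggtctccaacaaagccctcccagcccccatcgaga
IFI6 probe 3: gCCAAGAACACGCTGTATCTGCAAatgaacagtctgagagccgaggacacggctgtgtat
The sequences are given so that the annotation can be examined, and capitals mark a run of 23 bases that the third probe shares with a probe of another name, with 50 of 56 bases matching. The IFI6 value of 0.38 averages the first and second probes, so it takes in a probe whose listed accessions are all shared with immunoglobulin probes. The first alone gives 0.72, which does not pass 2-fold either.

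The last genes of this group had lower signals on the pubertal array. IFI35, a modulator of innate signalling, had 769 units in the pubertal culture and 1025 in the infant culture, a difference of -0.50. IFI44, a cytoplasmic protein, had 2009 units in the pubertal culture and 2812 in the infant culture, a difference of -0.57. The differences of IFI35 and IFI44 turned positive with spike-in scaling. IFI44L, the neighbour and paralogue of IFI44, was not well above background on the pubertal array, at 19.3 units, against 118 units on the infant array, and was at least 6.05-fold lower in the pubertal culture.

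**Figure D3:**
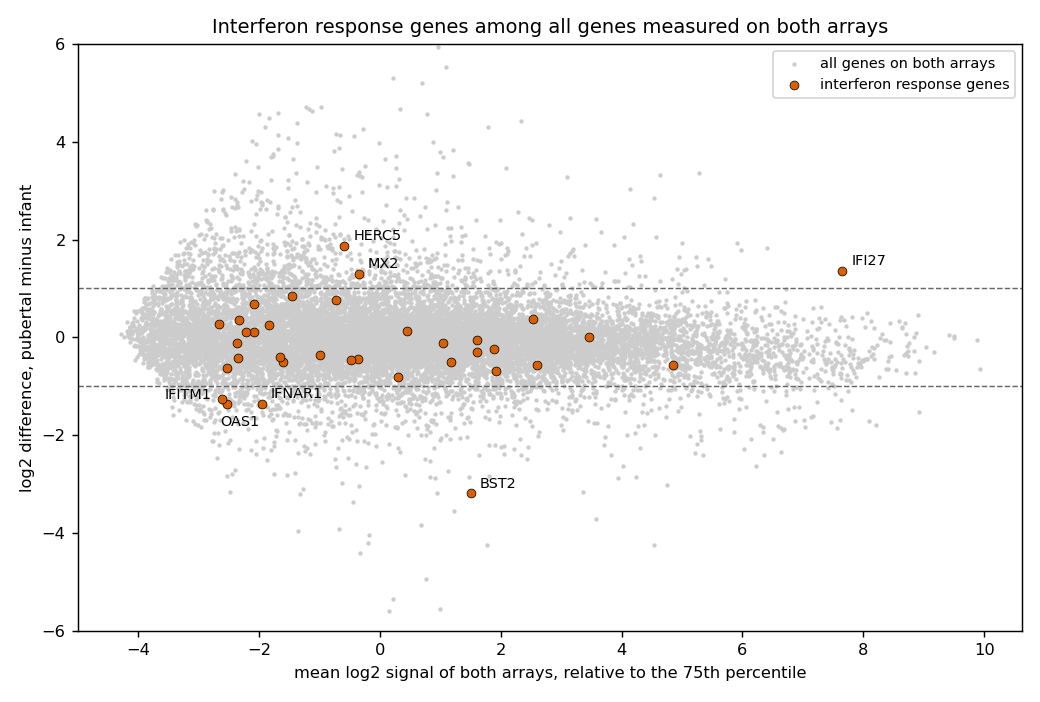
Difference, pubertal minus infant, against mean log2 signal of both arrays for the 14243 genes measured on both (grey) and the 35 interferon response genes (orange), with dashed lines at 2-fold; 8 grey genes lie beyond the plotted range of 6. The 7 named genes are those past 2-fold, among them BST2 at -3.19, and the other 28 orange points lie between the lines.

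Where genes had several probes above background on both arrays, the probes could be set against each other. This held for 12 of the genes, of which 9 had probes of one sign and 3 (IRF2, IRF7 and EIF2AK2) of both. The 12 include IFI6, whose second probe shares all its listed accessions with immunoglobulin probes. The median SD between probes was 0.37 for these 12 genes and 0.21 for the 4767 such genes of the whole array. The 48 probes above background on both arrays had a median GC content of 45%, the 13 above background on neither 38.3%, and all gene probes 41.7%.

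Other genes of the pathway were taken from lists of ligands, signal transducers, negative regulators, sensing genes and further interferon-induced genes, 97 of whose 108 names were on the array. Of the 54 measured on both arrays, 3 were at least 2-fold higher in the pubertal culture (5.56%, beside 7.32% of all genes) and 5 at least 2-fold lower (9.26%, beside 6.32%). Another 4 were above background in the pubertal culture alone, 9 in the infant culture alone and 30 in neither, of 97 on the array. The shares over all gene names were 4.21% on the pubertal array alone, 3.14% on the infant array alone and 26.3% on neither. The 54 genes' median was -0.17, and the pathway median was 0.84 with spike-in scaling and 0.083 with no filter on dim probes.

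Of 18 interferon ligands on the array, 13 were above background on neither array, among them IFNB1 and IFNG, beside 26.3% of all gene names. IFNE1, an interferon of reproductive epithelia, had 63.7 units in the pubertal culture and 24.1 in the infant culture, a difference of 1.31 that was 0.54, below 2-fold, with normexp. IFNA10 had 64.6 units in the pubertal culture and 4.42 in the infant culture, where it was not well above background, at least 3.27-fold higher. IFNA21 was above background in the infant culture alone, with 32.2 units there and 4.97 in the pubertal culture, at least 1.64-fold lower. IFNA4 had 230 units in the pubertal culture and 336 in the infant culture, a difference of -0.63, and IL28A differed by -0.02. The alpha interferon genes are close copies of one another, so a probe named for one may report others.

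None of 10 measured genes passed 2-fold in the list of negative regulators, beside 13.6% of all genes. That list also holds the ISG15-conjugating enzymes UBE2L6 and UBE1L. Among 9 measured sensing genes, TLR4, the receptor for bacterial lipopolysaccharide, had 1 of 3 probes above background, with 52.1 units in the pubertal culture and 23.2 in the infant culture, a difference of 1.08. Its call ended under 5 alternatives, at 0.17 with the median of all probes, 0.31 with normexp, 0.45 with no filter on dim probes, 0.92 with median scaling and 0.93 with quantile normalization. IRF8, a myeloid transcription factor, had 50.7 units in the pubertal culture and 3.70 in the infant culture, not well above background there, at least 2.56-fold higher.

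The further interferon-induced genes had 1 higher (3.85%, beside 7.32% of all genes) and 4 lower (15.4%, beside 6.32%) among 26 measured. TRIM38, a regulator of innate signalling, had 149 units in the pubertal culture and 22.8 in the infant culture on its detected probe, a difference of 2.62. The infant value of TRIM38, -4.07, lay close to the lowest detected signal of that array, -4.36. IFI30, a lysosomal thiol reductase, had 672 to 742 units on 3 probes of the pubertal array against 2900 to 3291 on the infant array, with probe differences of -2.29 to -2.13 and a mean of -2.21. TRIM5, a retroviral restriction factor, had 47.2 units in the pubertal culture and 192 in the infant culture, a difference of -2.11.

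SAMD9L, a restriction factor for poxviruses, had 65.8 units in the pubertal culture and 188 in the infant culture, a difference of -1.60 that was -0.97 with normexp and -0.59 with spike-in scaling, both within 2-fold. LY6E, a membrane protein that hinders coronavirus entry, had 289 units in the pubertal culture and 558 in the infant culture, a difference of -1.04. The LY6E call ended with normexp (-0.91), with the percentile taken over detected probes (-0.98) and with spike-in scaling (-0.03). EPSTI1 was not well above background on either of its probes on the pubertal array (18.3 and 13.2 units), against 42.2 and 69.2 units on the infant array, and was at least 2.76-fold lower. Above background on neither array were the chemokine genes CXCL9, CXCL10 and CXCL11, which interferon gamma induces in many cells.

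**Figure D4:**
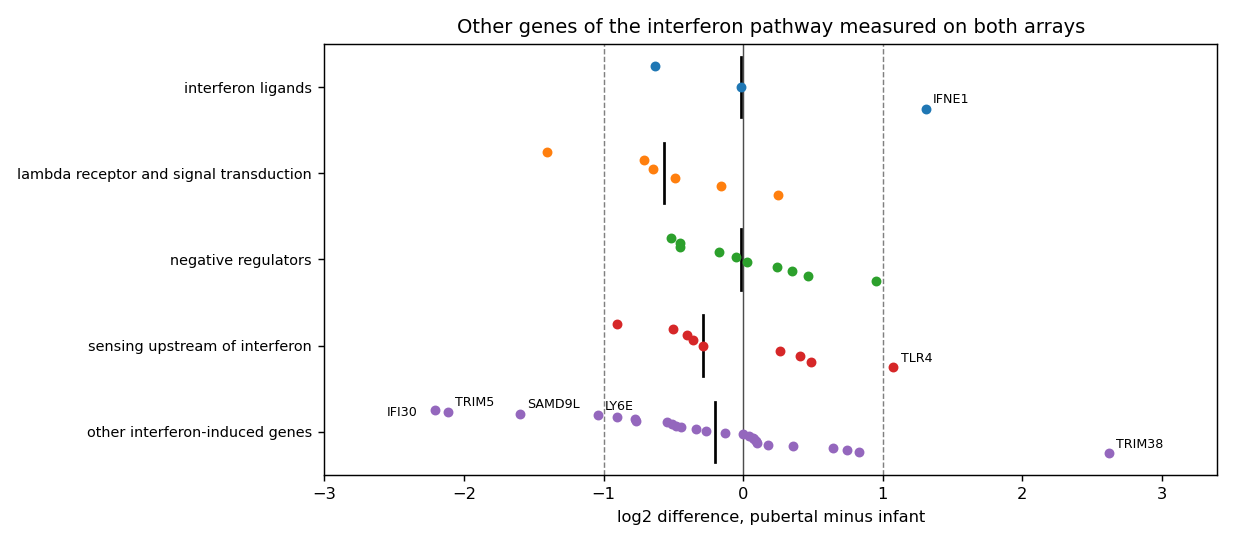
Log2 differences, pubertal minus infant, of the 54 other pathway genes measured on both arrays, with a row of points for each list, black bars at list medians and dashed lines at 2-fold. Points spread on both sides of 0 in each list, from IFI30 at -2.21 to TRIM38 at 2.62, and with spike-in scaling every point moves up by 1.01.

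The cultures were checked against markers of the labelled cell and of other cells of the testis. All 15 Sertoli markers were above background on both arrays. In the pubertal culture 3 of them were at least 2-fold higher (beside 7.32% of all genes) and 1 lower (beside 6.32%). Their summed level was 611 in the pubertal and 308 in the infant culture (in units of each array's 75th percentile). Macrophage and myeloid markers were above background for 11 of 14 in the pubertal and 8 of 14 in the infant culture, with a summed level of 6.54 in the pubertal and 2.19 in the infant culture. Of the 8 such markers measured on both arrays, 4 were at least 2-fold higher in the pubertal culture, beside 7.32% of all genes. These were CD163 (3.09 on the log2 scale), CSF1R (2.07), PTPRC (1.99) and TYROBP (1.32), whereas CD14 (0.60), FCER1G (0.0049), ITGAM (-0.08) and CD68 (-0.94) were within 2-fold. AIF1, C1QB and MRC1 passed background in the pubertal culture alone, and LYZ, C1QA and C1QC on neither array. Markers of peritubular myoid cells summed to 223 in the pubertal and 139 in the infant culture, with 5 of 8 at least 2-fold higher, beside 7.32% of all genes. These were ACTA2 (3.46), ACTG2 (3.10), MYH11 (2.24), SMTN (1.15) and TAGLN (1.07). CNN1 (0.62), DES (0.37) and LMOD1 (-0.85) were within 2-fold.

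Leydig cell markers had a summed level of 48.9 on the pubertal array against 153 on the infant array, but did not move as one. Of 6 measured on both, STAR (-4.24), CYP17A1 (-4.21) and CYP11A1 (-1.37) were at least 2-fold lower, beside 6.32% of all genes. INSL3 (0.41), HSD17B3 (0.35) and HSD3B2 (0.25) had small positive differences. CYP21A2 passed background in the pubertal culture alone, and LHCGR on neither array. T and NK cell markers summed to 0.65 in the pubertal culture and 1.07 in the infant culture, with 4 of 10 above background on each. None of 3 measured on both passed 2-fold, beside 13.6% of all genes in either direction. CD2 passed background in the pubertal culture alone and NKG7 in the infant culture alone. B and plasmacytoid dendritic cell markers summed to 9.04 in the pubertal culture and 7.02 in the infant culture, and MS4A1, CD79B, CLEC4C and IL3RA were above background on neither. Endothelial markers summed to 1.85 in the pubertal and 0.82 in the infant culture. Germ cell markers summed to 27.3 in the pubertal and 13.2 in the infant culture, and 4 were measured on both arrays, with differences of 4.72 for DAZL, 3.97 for SYCP1, 1.19 for ZPBP and 0.24 for UTF1. DDX4, MAGEA4 and SYCP3 passed background in the pubertal culture alone, PRM1 in the infant culture alone, and STRA8, TNP1 and PIWIL1 in neither. Fibroblast markers summed to 77.4 in the pubertal and 54.4 in the infant culture, with COL1A2 higher (1.92), DCN lower (-1.49) and a median difference of -0.15 over the 6 measured on both. The part of these cells in the differences of HERC5, MX2, IFI27, BST2 and the other interferon response genes was not tested.

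**Figure D5:**
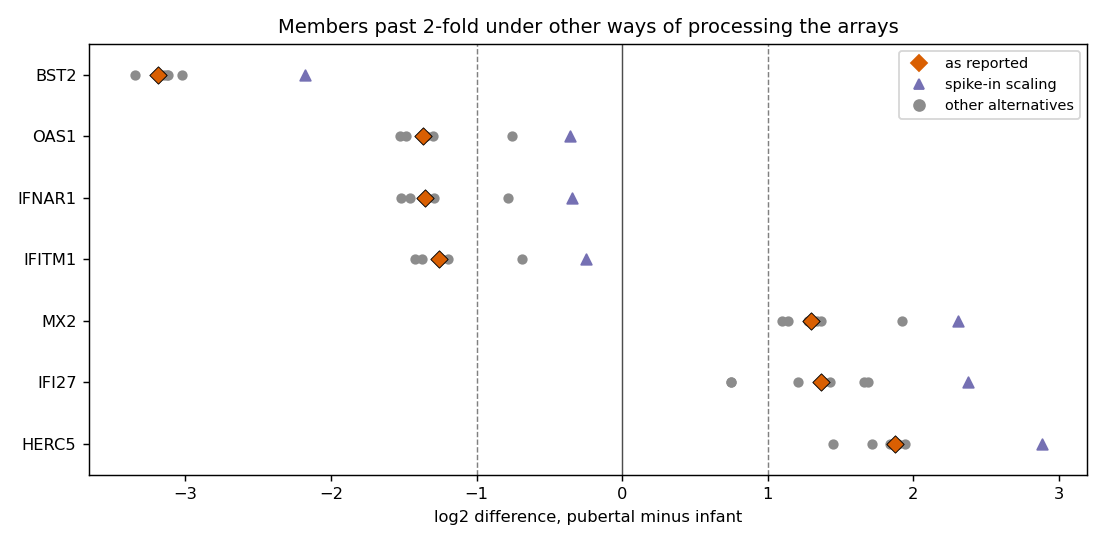
Log2 difference, pubertal minus infant, of the 7 genes past 2-fold as reported (orange diamonds), with spike-in scaling (purple triangles) and under the other alternatives (grey circles), with dashed lines at 2-fold. HERC5 and MX2 stay above the upper line and BST2 below the lower one throughout, IFI27 falls to 0.75 in some settings, and OAS1, IFNAR1 and IFITM1 lie between the lines with spike-in scaling.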

How the data were processed

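Cy3-labelled RNA of each culture was hybridised to a 1-colour human array (hg18 annotation), both on 1 slide with 1 scan, per the file headers. The deposited intensity values were written by Feature Extraction from Agilent (version 10.5.1.1), as the headers and the submitters' processing notes say. Per the file headers, the intensity used here had its background subtracted, its spatial trend removed and its lowest values set to a surrogate by the authors' software. No scaling between arrays is recorded there.

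Outlier spots (96 pubertal, 91 infant, of 51538 gene spots) were left out. No spot was saturated, and the share well above background was 54.9% (pubertal) and 54.8% (infant). The log2 of the deposited intensity was taken and each array's 75th percentile (406.7 pubertal, 382.4 infant) subtracted. Probes were taken as detected with the flag for signals well above background on 50% or more of their spots, and each gene's value averages the probes detected on both arrays. For genes detected on 1 array, the fold is a bound against the higher of the other array's lowest detected signal (-4.29 pubertal, -4.36 infant) and the gene's own. Spots of 27 replicated probes had a median SD of 0.12 (pubertal) and 0.10 (infant). The number of arrays limits the precision.

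The members, the pathway and marker lists and the alternatives were chosen with earlier results of these data known. All members are given, with the pathway genes past 2-fold or bounded over 2-fold, except 1 that is not reported here. Of the 44 symbols, 42 occur in macaque gene tables (T2T-MMU8v2.0), which served for gene order, and IFITM2 and IFITM3 do not. Groups came from the sample titles. Probe sequences are those of the array file, whose strand is not stated. Python 3.11.15, pandas 2.3.3, R 4.3.3 and limma 3.58.1 (normexp, offset 50) were used, and the gene function was tested on simulated data.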

Additional observations from a re-analysis of the deposited data

How the results depend on the processing

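As reported, the interferon response genes gave 3 higher, 4 lower and a median of -0.24, which were recomputed under 14 alternatives and 1 chosen after seeing the data (IFI6 without the probes that list immunoglobulin accessions, which changed none of them). Normexp background correction gave 1 lower, no filter on dim probes 7 lower, and probes above the median signal 1 lower. The brightest probe gave 5 higher. Spike-in scaling gave 14 higher, 1 lower and a median of 0.77. At 1.5-fold 6 were higher and 7 lower (15% and 16.8% of all genes), and at 4-fold 0 and 1 (1.67% and 0.857% of all genes). IFITM1, IFNAR1 and OAS1 were the lower calls lost with normexp, spike-in scaling and the filter at the median signal. That filter left these genes without a value, and spike-in scaling raised every difference by 1.01. The cause of their change with normexp was not tested. IFI27 lost its call where its undetected probe was averaged in. Of the genes seen on the pubertal array alone, the weaker detection flag left 0 in place of 2, by its construction, and with no filter, or the filter at the median signal on both arrays, no such count could be made. TLR4, IFNE1, SAMD9L and LY6E each lost a call under at least 1 alternative. TRIM38 also had no call with the filter at the median signal, under which 0 pathway genes were called higher. The other pathway genes gave 3 higher, 5 lower and a median of -0.17. Normexp gave 1 higher and 3 lower, spike-in scaling 23 higher, 2 lower and a median of 0.84, and no filter 7 higher, 10 lower and a median of 0.083. Probes above the median signal gave 0 higher, the weaker flag 5 higher and 9 lower, 1.5-fold 7 and 12, and 4-fold 1 and 2. For all genes, spike-in scaling gave 6620 higher and 119 lower, and median scaling 785 higher and 1305 lower, in place of 1042 and 900. Single-gene differences moved by less than the scanner error in 441 of 528 cases. Many of these cases could not move, because the settings on filters, flags and choice of probe return the same value for a gene with a single detected probe and no other. The count is therefore no measure of robustness. No paired analysis was possible because each group has 1 array. Signals near background limit the members dimmest on the arrays.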

Other observations

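A few array names that the lists did not match were looked up after the values above had been seen, and are given as values. Genes were matched by symbol, so a listed gene that the array holds under an older name absent from the lists was not counted above. ISGF3G, an older symbol for IRF9, had 1 of 2 probes above background, with 47.2 units in the pubertal culture and 52.9 in the infant culture, a difference of -0.26. LGP2, a relative of the RNA sensors RIG-I and MDA5, had 2024 units in the pubertal culture and 1722 in the infant culture, a difference of 0.14.

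FLJ20035, which the array describes as a hypothetical protein, had 422 and 238 units on the pubertal array against 112 and 59.2 on the infant array, and its probes differed by 1.83 and 1.92. Neither FLJ20035 nor LGP2 entered the pathway counts above, which hold no value under the listed symbols DDX60 and DHX58. The LOC391020 probe, described as similar to IFITM3 and sharing bases with the IFITM2 and IFITM3 probes, had 138 units in the pubertal culture and 815 in the infant culture, a difference of -2.65. The probe of IFITM5, a bone-specific relative that interferon does not induce, had 186987 units in the pubertal culture and 142631 in the infant culture, a difference of 0.30. Whether this bright probe reports IFITM5 was not tested. The probe of the pseudogene IFITM4P had 1846 units in the pubertal culture and 2127 in the infant culture, a difference of -0.29.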
